A study of Mus musculus with 6 samples.

Results

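A set of 40 genes that mark the excitatory neurons of the cerebral cortex and its layers were followed in the prefrontal cortex of BTBR and C57BL/6J mice. The members are every non-control probe on the array whose gene name is one of the chosen 40, under its old or current symbol, which gave 67 probes. Of these genes, 39 could be tested, out of 16471 genes tested on the array. The remaining gene, Nptx1, a secreted pentraxin of excitatory synapses, had 1 probe that was not well above background on any array. RNA of whole prefrontal cortex was hybridised to one-colour Agilent arrays, each holding the RNA of 1 mouse, from 3 C57BL/6J mice of wild type genotype and 3 BTBR mice. The BTBR genotype is given as BTBR T+ Itpr3tf/J, although the strain background field of those samples reads C57BL/6J. All mice were male, 5 months old and without drug treatment. Both are inbred strains, so the C57BL/6J mice are not littermate controls, and the strains differ at many loci. BTBR mice lack a corpus callosum and are used as a model of autism-like behaviour, as background. The question the series puts is how gene expression in this region differs between the strains.

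Excitatory projection neurons of the cortex release glutamate and are arranged in layers. Upper-layer neurons mostly connect cortical areas with each other, and deep-layer neurons send axons to the thalamus, brainstem, spinal cord and striatum. Their identities are set by transcription factors such as Cux1 and Cux2 in upper layers and Tbr1, Fezf2 and Bcl11b in deep layers, several of which stay on in the adult. Bcl11b, Foxp2, Syt6, Crym and Pcp4 are deep-layer genes that neurons of the striatum, which lies beneath the frontal cortex, express as well.

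Values are log2 signals relative to the 75th percentile of each array, so a value of 0 is that percentile. Because a probe's brightness depends on its sequence, levels are compared between arrays and not between probes. In bulk tissue, fewer cells of a type and less RNA per cell cannot be told apart. Between 28101 and 30665 of 41174 probes were well above background on an array, and none was saturated. Replicates 1 and 2 of each strain were hybridised on 1 slide and replicate 3 of each on another. C57BL/6J replicate 3 and, to a lesser degree, BTBR replicate 2 stood apart by high levels of markers of striatal neurons, so the main results are also given without them.

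None of the 39 members passed the test between strains (limma with Benjamini-Hochberg adjustment over all genes, adjusted p under 0.05). The background share was 5.65% of all genes, with 2.17% higher and 3.48% lower in BTBR. At an unadjusted p under 0.05 there were 2 members, Slc17a6 and Cux1, against 17.1% of all genes. The mean was higher in BTBR for 21 members (51.8% of all genes) and lower for 18, and the median difference was 0.03 on the log2 scale against 0.01 over all genes. The median absolute difference was 0.18 for the members and 0.15 for all genes, and 37 of the 39 members differed by less than 0.5. No member was called without C57BL/6J 3, where 5.46% of all genes were, or without C57BL/6J 3 and BTBR 2, where 3.86% were. There were 3 members without overlap between the strains, Slc17a6, Pou3f2 and Ctgf, against 23.6% of all genes.

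The members varied more between mice of a strain than most genes did. The median SD among the C57BL/6J mice was 0.35 on the log2 scale for the members and 0.16 for all genes, and among the BTBR mice it was 0.20 and 0.15. C57BL/6J replicate 3 lay at least 1 log2 unit from the mean of the other C57BL/6J arrays for 9 members, which is 23.1%, against 5.43% of all genes. It was the highest of the C57BL/6J arrays for 13 members and the lowest for 25. Differences within the 2 slides had opposite signs for 28 of 39 members, which is 71.8%, against 48.0% of all genes.

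**Figure D1:**
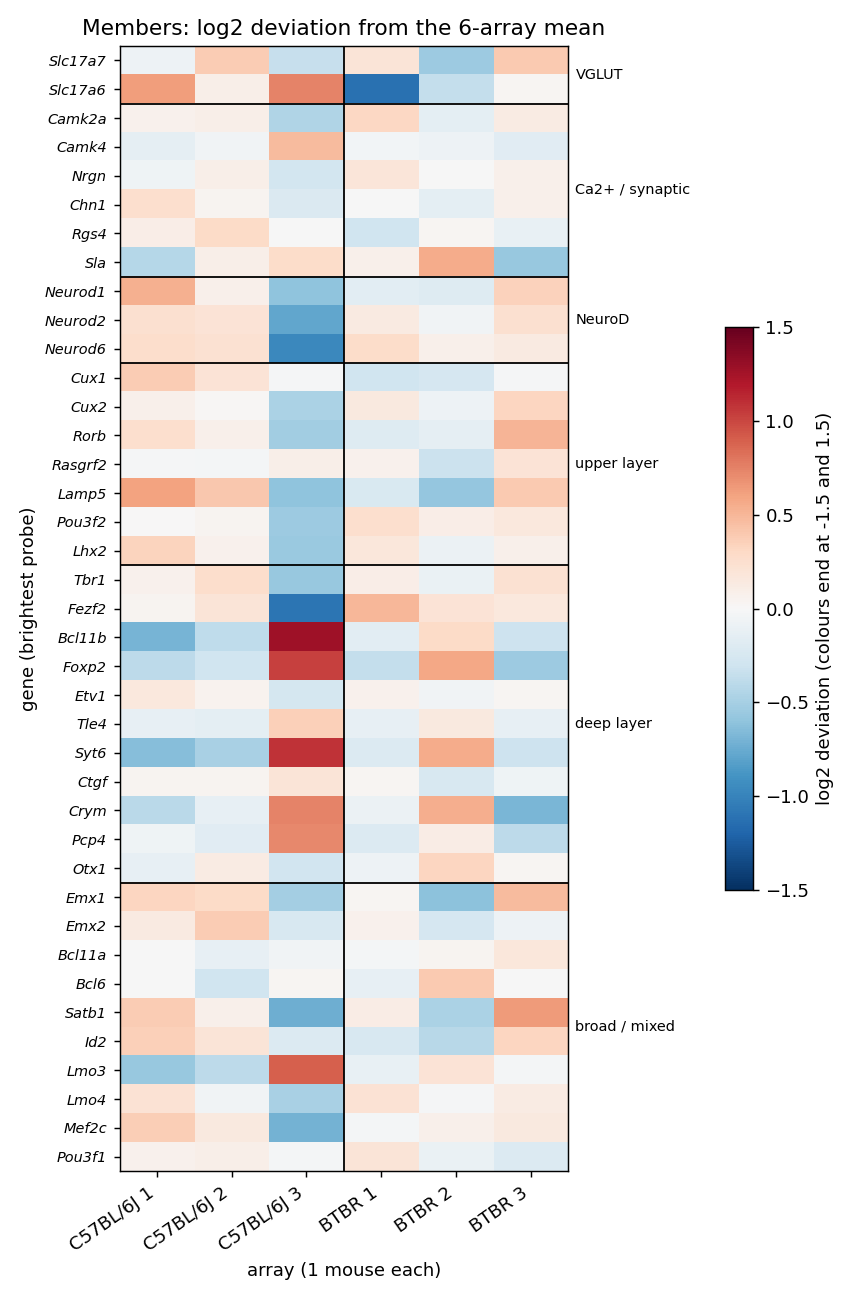
Log2 deviation of each tested member from its mean over the 6 arrays, with 1 column per mouse and genes grouped by role. Red marks an array above the gene's mean and blue below it. C57BL/6J 3 is the column with the strongest colours, red for Bcl11b, Foxp2, Syt6, Crym, Pcp4 and Lmo3 and blue for the NeuroD genes and Fezf2.

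Slc17a6 and Cux1 were the members with an unadjusted p under 0.05, and Lmo3 the member whose probes disagreed most. The Slc17a6 probes gave nearly the same difference, while those of Cux1 differed in size and those of Lmo3 in size and sign. The first 30 of the 60 bases of each of their probes are shown so that the probes can be told apart. Positions are those of the file headers, in build mm9, and exon or UTR annotation of that build was not used here. The Slc17a6 probes lie on chr7:58924553-58924612 and chr7:58926067-58926126 (plus strand). The Lmo3 probes lie on chr6:138313467-138313526 and chr6:138312128-138312195 (minus strand). The Cux1 probes, in the order listed, lie on chr5:136724181-136724240, chr5:136729943-136730002, chr5:136755342-136755401 and chr5:136749681-136749741 (minus strand).
Slc17a6 probe A_51_P174996: ggatgaagaaacgggggacatcactcagaa
Slc17a6 probe A_52_P8197: taagtgcaaagcataaaacctcctgtgtgt
Lmo3 probe A_51_P118188: ttgtgtaaatgttgtccagatttctcccta
Lmo3 probe A_52_P93479: tgaaaaccaaacaggatctacattgttttg
Cux1 probe A_52_P442676: tccatgatttgagttctgcttgcttcttta
Cux1 probe A_52_P567658: agcctgcgcgctgacaacatcaaactcttt
Cux1 probe A_52_P680751: atatcagcagaagccatacccatcaccaaa
Cux1 probe A_51_P375237: gtattttataatctgctttttaacctctaa

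The vesicular glutamate transporters load glutamate into synaptic vesicles. Slc17a6 (VGLUT2), the form of thalamic and other subcortical neurons and of a few cortical ones, had the largest difference of any member in the gene-level fit. Its brightest probe read 0.57, 0.03 and 0.69 in the C57BL/6J mice (replicates 1 to 3) and -1.18, -0.42 and -0.03 in the BTBR mice. Every BTBR mouse was below every C57BL/6J mouse, and the narrowest gap was between C57BL/6J 2 and BTBR 3. The difference was -0.97 ± 0.32 (SE, n = 3 per strain), a level 1.97-fold lower in BTBR, with a 95% confidence interval from -1.76 to -0.19. It did not pass the test (limma adjusted p = 0.192). The second probe, A_52_P8197, read 0.16, -0.47 and 0.08 in C57BL/6J and -1.76, -1.18 and -0.25 in BTBR, a difference of -0.99 ± 0.39 (SE). Its strains overlapped, since BTBR 3 was above C57BL/6J 2. The brightest probe was lower in BTBR on both slides, at -1.10 on slide 1 and -0.72 on slide 2, and at -0.91 without C57BL/6J 3 and BTBR 2. A list of 10 thalamic and hippocampal markers had a summed signal of 11.2 to 24.6 times the 75th percentile in C57BL/6J and 17.4 to 25.5 times in BTBR. None of them passed the test with all 6 arrays. The sum mostly follows Wfs1, by far the brightest, which read 2.88, 2.96 and 4.38 in C57BL/6J and 4.25, 4.32 and 3.65 in BTBR. It is therefore no measure of thalamic tissue. The median difference of the list was 0.15, with Tcf7l2 at -0.16, Lef1 at -0.05, Prkcd at 0.01 and Rgs16 at 0.17. Grp, at 1.65, was called in 6 of 20 alternatives, among them the fits without C57BL/6J 3 (limma adjusted p = 0.0201) and with BTBR 2 left out as well (limma adjusted p = 0.0369), and Wfs1 and Dsp in 1 each. The part of these markers in Slc17a6 was not tested. Slc17a7 (VGLUT1), the transporter of most cortical excitatory neurons, read 3.26, 3.71 and 2.99 in C57BL/6J and 3.53, 2.79 and 3.73 in BTBR. Its strains overlapped throughout and the difference was 0.03, with an interval from -0.68 to 0.75 (limma adjusted p = 0.983).

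**Figure D2:**
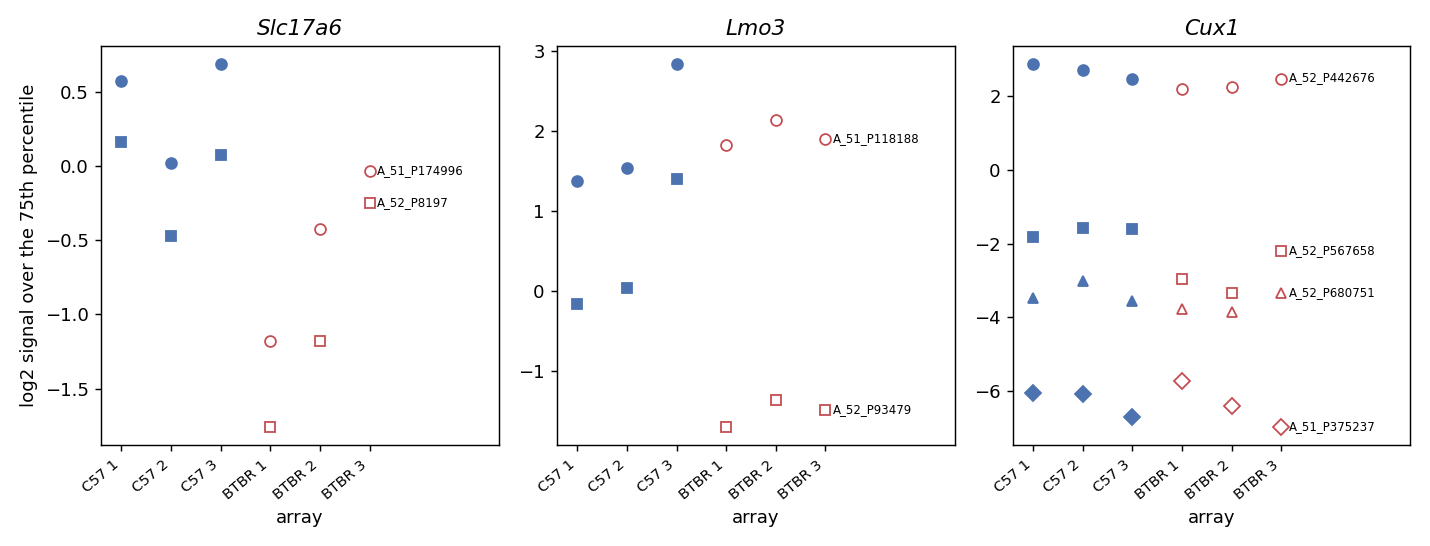
Log2 signal over the array's 75th percentile for every probe of Slc17a6, Lmo3 and Cux1, by array, with filled symbols for C57BL/6J, open symbols for BTBR and 1 symbol shape per probe. The Slc17a6 probes vary alike, whereas the Lmo3 probes part in BTBR: A_52_P93479 lies between -1.69 and -1.36 there and A_51_P118188 between 1.82 and 2.13.

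The calcium signalling and synaptic genes were close to equal between strains. The 6 tested genes differed by -0.25 to 0.19, with a median of -0.0014 on the log2 scale. Rgs4, which shortens signalling by G proteins, had the smallest p of the group. It read 3.53, 3.71 and 3.42 in C57BL/6J and 3.13, 3.46 and 3.32 in BTBR. Only BTBR 2 reached into the C57BL/6J range, and the difference was -0.25 ± 0.13 (SE; limma adjusted p = 0.409). Camk2a, a kinase of the excitatory postsynapse, differed by 0.19, and Nrgn (neurogranin), which binds calmodulin in dendrites, by 0.17. Camk4, a calcium-dependent kinase of the nucleus, differed by -0.19, with other probes at -0.18, where the strains did not overlap, and 0.26. Chn1 (chimerin), a Rac regulator, differed by -0.05 and Sla, an adaptor protein of receptor signalling, by 0.04. The intervals were narrowest for Nrgn, from -0.13 to 0.47, and widest for Sla, from -0.73 to 0.82.

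The NeuroD transcription factors, which drive excitatory neuron differentiation, showed no strain difference past the test, and C57BL/6J 3 was the lowest mouse for each. Neurod6 read 0.93, 0.89 and -0.30 in C57BL/6J and 0.95, 0.75 and 0.80 in BTBR. C57BL/6J 3 stood apart by -1.21 from the mean of the other C57BL/6J mice, and the other 5 mice lay close together. The difference between strains was 0.32 ± 0.33 (SE; limma adjusted p = 0.729) and became -0.08 without C57BL/6J 3. Neurod2 differed by 0.22 and its value in C57BL/6J 3 was -1.001 from the mean of the other C57BL/6J mice. Neurod1 differed by -0.01, with -0.91 in C57BL/6J 3 by the same measure; its other 5 mice were spread from -4.99 to -4.26, and the difference became -0.31 without C57BL/6J 3.

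The 7 upper-layer genes divided into 4 with a higher and 3 with a lower mean in BTBR, with a median difference of 0.11. Cux1, a homeodomain factor that shapes dendrites of upper-layer neurons, had the smallest p. Its brightest probe read 2.87, 2.69 and 2.47 in C57BL/6J and 2.19, 2.24 and 2.47 in BTBR, so that the third mice of the strains met. The difference was -0.37 ± 0.14 (SE; limma adjusted p = 0.247), with an interval from -0.71 to -0.03. The difference was -0.56 on slide 1 and 0.00 on slide 2, and -0.44 without C57BL/6J 3 and BTBR 2. The other Cux1 probes were also lower in BTBR on average. A_52_P567658 read -1.82, -1.57 and -1.60 in C57BL/6J and -2.95, -3.34 and -2.20 in BTBR. Its strains did not overlap, and in a fit over all probes the difference was -1.17 ± 0.29 (SE; limma adjusted p = 0.0787). The remaining probes differed by -0.30 for A_52_P680751 and -0.09 for A_51_P375237. The last of these was well above background in all 3 C57BL/6J mice and 1 BTBR mouse. When arrays were weighted by their quality, Cux1 was the 1 member called, at -0.48 (limma adjusted p = 0.0365), in a fit that called 11.4% of all genes.

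Pou3f2 (Brn2), a POU factor of upper-layer neurons, was higher in BTBR without overlap. It read -1.73, -1.70 and -2.29 in C57BL/6J and -1.48, -1.64 and -1.58 in BTBR. The margin between C57BL/6J 2 and BTBR 2 was small, and C57BL/6J 3 was the lowest mouse. The difference of 0.34 ± 0.18 (SE; limma adjusted p = 0.42) became 0.14 without C57BL/6J 3. Lamp5, a membrane protein of upper-layer neurons and some interneurons, differed by -0.27, with -0.91 on slide 1 and 0.99 on slide 2. The other differences were 0.26 for Cux2, the close relative of Cux1, 0.12 for Rorb, a nuclear receptor of layer IV, 0.11 for Lhx2, a LIM factor of cortical identity, and -0.04 for Rasgrf2, a Ras exchange factor. C57BL/6J 3 was the lowest C57BL/6J mouse for 6 of the 7 genes, the exception being Rasgrf2.

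The 11 deep-layer genes had a median difference of -0.06, with 5 means higher and 6 lower in BTBR. Fezf2, which specifies neurons that project below the cortex, had the smallest p. It read -0.27, -0.12 and -1.40 in C57BL/6J and 0.20, -0.10 and -0.15 in BTBR. C57BL/6J 3 was far below the other 5 mice, and BTBR 3 lay within the range of C57BL/6J 1 and 2. The difference was 0.58 ± 0.34 (SE; limma adjusted p = 0.49) and became 0.18 without C57BL/6J 3. Ctgf (Ccn2), a secreted matrix protein that marks the deepest layer, was lower in BTBR without overlap. It read 2.13, 2.14 and 2.28 in C57BL/6J and 2.13, 1.85 and 2.03 in BTBR. C57BL/6J 1 and BTBR 1 were nearly equal, and the difference was -0.18 ± 0.11 (SE; limma adjusted p = 0.506).

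The 5 deep-layer genes that the striatum also expresses were high in the same mice. Bcl11b (Ctip2), a zinc finger factor of subcortical projection neurons and striatal neurons, read 1.501, 1.81 and 3.46 in C57BL/6J and 2.03, 2.48 and 1.89 in BTBR. C57BL/6J 3 was above every other mouse, by 1.81 over the mean of its strain's other mice, and BTBR 2 was the highest BTBR mouse. Those 2 mice were also the highest of their strains for Foxp2, a forkhead factor, Syt6, a synaptotagmin, Crym, which binds thyroid hormone, and Pcp4, a calmodulin regulator. C57BL/6J 3 exceeded the mean of the other C57BL/6J mice by 1.37 for Foxp2, 1.64 for Syt6, 1.01 for Crym and 0.84 for Pcp4. BTBR 2 exceeded the mean of the other BTBR mice by 1.03, 0.82, 0.94 and 0.41 for these genes in that order. Strain differences of the 5 genes lay between -0.33 and 0.03, with adjusted p from 0.643 to 0.992 (limma), and their intervals were wide, from -1.37 to 1.12 for Bcl11b. Without C57BL/6J 3 the differences became 0.48 for Bcl11b, 0.23 for Foxp2, 0.57 for Syt6, 0.19 for Crym and -0.05 for Pcp4, so that the sign turned for Bcl11b, Foxp2 and Crym. None of the 5 passed the test in that fit.

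Of the 6 other deep-layer genes, C57BL/6J 3 was the lowest C57BL/6J mouse for 4 and the highest for Tle4 and Ctgf. BTBR 2 was the highest BTBR mouse for Tle4 and Otx1, so Tle4 was highest in the same mice as the 5 shared genes. Tbr1, the factor of layer VI corticothalamic neurons, was -0.74 there relative to the mean of the other C57BL/6J mice, and Etv1 (Er81), of layer V, was -0.37. Otx1, a homeodomain factor of deep layers, was -0.28, and Tle4, a corepressor of layer VI, was 0.50. Their strain differences were 0.15 for Tbr1, 0.03 for Etv1, 0.19 for Otx1 and -0.06 for Tle4. The other Otx1 probe, A_51_P444931, was dim, with means of -6.32 in C57BL/6J and -5.71 in BTBR. Its strains did not overlap. The difference was 0.61 ± 0.18 (SE) and was not called in the fit over all probes (limma adjusted p = 0.135).

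**Figure D3:**
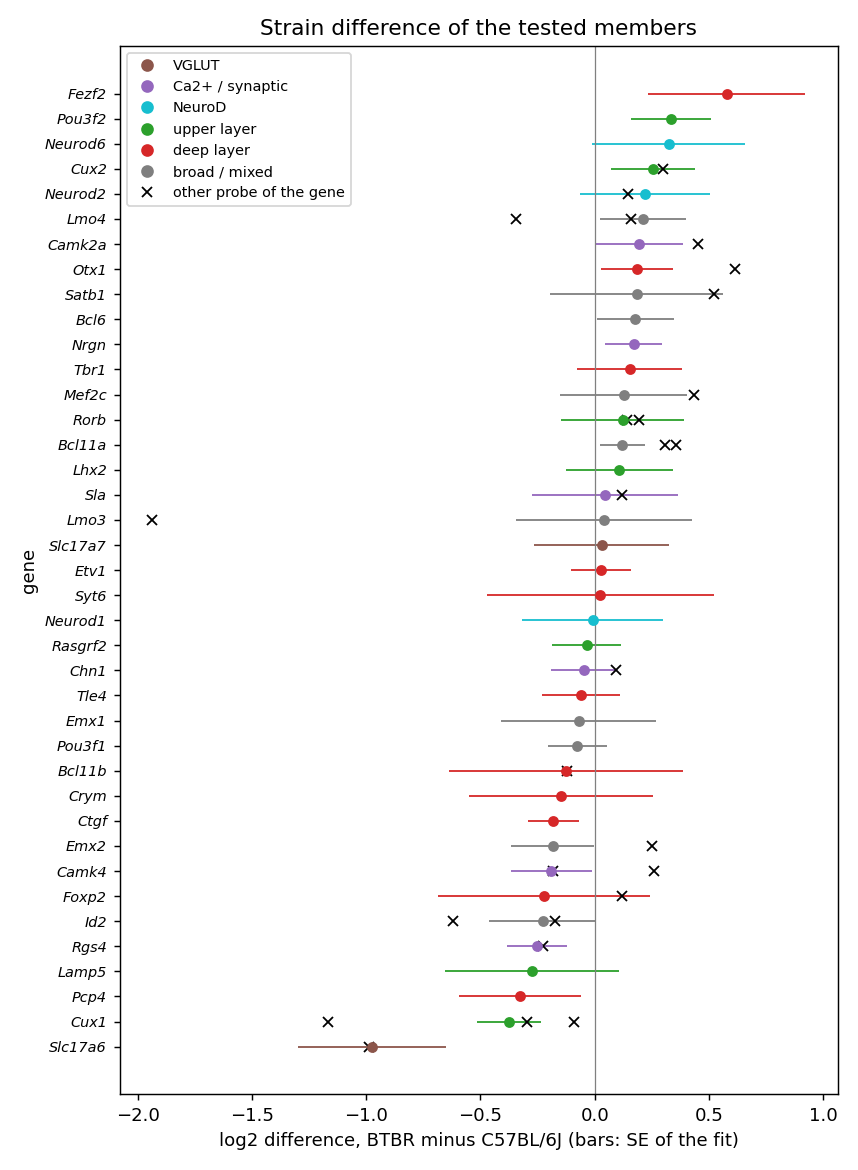
Strain difference in log2 signal, BTBR minus C57BL/6J, for the 39 tested members in order of size, with the SE of the fit as bars (3 mice per strain) and colours for role. Crosses are other probes of the same gene. Slc17a6 lies lowest at -0.97 and Fezf2 highest at 0.58, and the Lmo3 cross at -1.94 is far from its gene's point at 0.04.

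The 10 regulators with a broad or mixed layer pattern had a median difference of 0.08. Bcl11a (Ctip1), a zinc finger partner of Bcl11b in layer identity, had the smallest p of the group. It read 4.13, 4.01 and 4.09 in C57BL/6J and 4.11, 4.18 and 4.31 in BTBR. BTBR 1 lay within the C57BL/6J range and the other BTBR mice just above it, and the difference was 0.12 ± 0.10 (SE; limma adjusted p = 0.641). Means were higher in BTBR by 0.13 for Mef2c, an activity-dependent factor, 0.18 for Satb1, a chromatin organiser, 0.18 for Bcl6, a repressor of Notch signalling in neurogenesis, and 0.21 for Lmo4, a LIM-only cofactor. They differed by -0.07 for Emx1 and -0.18 for Emx2, homeodomain factors of the cortical lineage, -0.08 for Pou3f1, a POU factor of projection neurons, and -0.23 for Id2, an inhibitor of bHLH factors. The other Id2 probes differed by -0.18 for A_52_P240542 and -0.62 for A_52_P94071. For A_52_P94071 the strains did not overlap (limma adjusted p = 0.258 in the fit over all probes). None of these passed the test.

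Lmo3, another LIM-only cofactor, gave different answers by its 2 probes. The brightest, A_51_P118188, read 1.37, 1.54 and 2.83 in C57BL/6J and 1.82, 2.13 and 1.90 in BTBR. Its strains overlapped and the difference was 0.04 ± 0.38 (SE; limma adjusted p = 0.983). The other probe, A_52_P93479, read -0.16, 0.04 and 1.40 in C57BL/6J and -1.69, -1.36 and -1.48 in BTBR. All 3 BTBR mice were more than 1 log2 unit below the lowest C57BL/6J mouse, and both probes were highest in C57BL/6J 3. The difference was -1.94 ± 0.40 (SE), a signal 3.83-fold lower in BTBR, and it passed the test over all probes (limma adjusted p = 0.0459). This was the 1 member probe called of 66, in a fit that called 5.44% of 30011 probes. It was lower in BTBR on slide 1 (-1.47), on slide 2 (-2.88) and without C57BL/6J 3 and BTBR 2 (-1.53). The call was kept in 7 of 15 alternative fits, with adjusted p between 0.00838 and 0.285. Leaving out any 1 mouse other than C57BL/6J 3 ended it, and the difference stayed between -2.23 and -1.45. The position given for A_52_P93479 covers more bases than the probe itself has. Whether this probe matches the sequence of both strains equally was not tested. Across the members, 20 genes had more than 1 tested probe. The probes shared a sign in 14 of these and differed in 6: Camk4, Chn1, Foxp2, Emx2, Lmo3 and Lmo4.

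The balance of upper and deep layers was read from a score for each array, the median over a list of each gene's deviation from its mean over the 6 arrays. It is given as a description with no test. The upper-layer score was 0.25, 0.06 and -0.52 in C57BL/6J and 0.06, -0.13 and 0.21 in BTBR. The deep-layer score was -0.12, -0.12 and 0.36 in C57BL/6J and -0.09, 0.21 and -0.12 in BTBR. C57BL/6J 3 was thus lowest for the upper and highest for the deep layers, and BTBR 2 stood next to it on both. The upper minus deep score was 0.37, 0.18 and -0.88 in C57BL/6J and 0.15, -0.34 and 0.32 in BTBR. Its mean was -0.11 ± 0.67 (SD, n = 3) in C57BL/6J and 0.04 ± 0.34 (SD, n = 3) in BTBR, so the difference of 0.15 was smaller than the spread within either strain. The difference was -0.37 on slide 1 and 1.20 on slide 2, and it became -0.23 without C57BL/6J 3 and -0.04 without C57BL/6J 3 and BTBR 2.

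The parts of the deep-layer list scored differently. The 5 genes that the striatum also expresses scored -0.40, -0.30 and 1.02 in C57BL/6J and -0.20, 0.55 and -0.39 in BTBR. The 6 other deep-layer genes scored 0.04, 0.09 and -0.27 in C57BL/6J and 0.05, 0.05 and 0.03 in BTBR, so C57BL/6J 3 was the lowest mouse here. With these 6 genes alone the upper minus deep difference between strains was 0.02.

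Markers of striatal projection neurons scored highest in C57BL/6J 3 and BTBR 2 within their strains, as did the shared deep-layer genes. A list of 14 tested markers, none of them a member, scored -0.80, -0.23 and 2.46 in C57BL/6J and -0.96, 0.55 and -1.31 in BTBR. C57BL/6J 3 was above both other C57BL/6J mice for 14 of 14 markers and BTBR 2 above both other BTBR mice for 12 of 14. The summed signal of the list relative to the 75th percentile ranged from 30.5 to 240 in C57BL/6J and from 18.7 to 68.4 in BTBR, and 13 or 14 markers were well above background on each array. Penk and Pde10a, among its brightest genes, read 7.001 and 4.89 in C57BL/6J 3. The ranges in the other 5 mice were 3.00 to 5.39 for Penk and 0.48 to 1.89 for Pde10a. With all 6 arrays none of the 14 markers passed the test between strains, although 13 had a lower mean in BTBR, with a median difference of -0.93. Over all genes, 51.8% had a higher mean in BTBR. The list's median difference was 0.36 on slide 1 and -3.82 on slide 2, the slide of C57BL/6J 3. Without C57BL/6J 3 alone, Pde10a differed by -0.89 and Penk by -0.35, whereas Isl1 differed by 0.70 and Adcy5 by 0.40. None of the list was called in that fit. Without C57BL/6J 3 and BTBR 2, Pde10a was called lower in BTBR, at -1.28 (limma adjusted p = 0.0185), and Penk differed by -1.09 (limma adjusted p = 0.0581). No other tested marker of the list was called in that fit. The part of the striatal markers in the members' values was not tested.

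**Figure D4:**
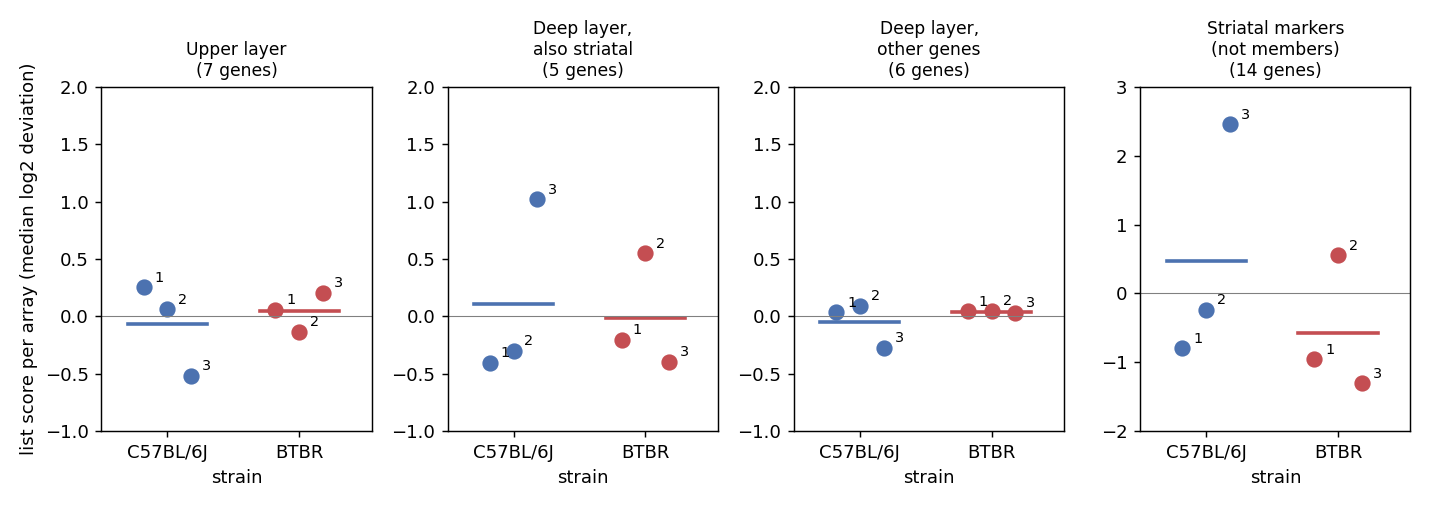
Score of each array, the median log2 deviation of a list's genes from their 6-array means, for 7 upper-layer genes, 5 deep-layer genes that the striatum also expresses, 6 other deep-layer genes and 14 striatal markers. Points are single mice with their replicate number, bars are strain means, and the panel of striatal markers has a wider axis. C57BL/6J 3 and BTBR 2 are the highest of their strains for the shared deep-layer genes and the striatal markers.

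Among markers of other cell types, those of oligodendrocytes differed most often between strains. Of 8 oligodendrocyte markers, 4 were lower in BTBR (limma, adjusted p under 0.05), and the list's score was 0.31 ± 0.19 (SD, n = 3) in C57BL/6J and -0.31 ± 0.10 (SD, n = 3) in BTBR. Mbp and Mag, among the brightest of them, differed by -0.35 and -0.93. Of the other lists, 3 of 9 microglia, 1 of 8 astrocyte and 1 of 10 interneuron markers passed the test. Over all genes the share called was 5.65%. These calls went both ways. Of the microglia markers, Cx3cr1 was higher in BTBR, at 1.22, and C1qb and C1qc were lower, at -1.11 and -0.63. The astrocyte marker Gfap was lower, at -1.21, and the interneuron marker Adarb2 higher, at 1.09. Whether these differences bear on the members was not tested.

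A list of 34 other genes of cortical projection neurons gave the same count. None passed the test, against 5.65% of all genes. There were 18 means higher and 16 lower in BTBR, and the median difference was 0.01. The smallest adjusted p was 0.276, for Foxp1, a forkhead factor of cortex and striatum, at -0.37. The strains did not overlap for 1 of them, against 23.6% of all genes. This was Hs3st4, a heparan sulfate sulfotransferase of layer VI, at -0.17. Foxp1 and Hs3st4 were named after their values were seen.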

How the data were processed

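Signals were read from scanner files of 6 Agilent arrays. Per the file headers the scanner software was Feature Extraction 10.7.3.1, whereas the submitters' processing notes give version 9.1. The deposited files hold intensity per spot on a linear scale, background-subtracted by Agilent's software, with other columns of flags for background and outliers per the file headers. The authors' deposited matrix holds log2 values of unstated scaling and served as an alternative. From log2 of the processed signal, the 75th percentile of the array's non-control probes was subtracted. Spots were averaged without outlier-flagged ones where another existed. A probe entered when well above background on at least 3 of 6 arrays, and the brightest probe stood for a gene (16471 genes, named through RefSeq accessions and symbols of GRCm38.p6). The strain comparison used limma 3.58.1 (R 4.3.3) without covariates, with Benjamini-Hochberg adjustment over all genes and a threshold of 0.05. The script was tested on simulated data. Mice were separate animals per the design text. Alternatives were normexp (offset 50), other scalings, filters, probe rules, slide and replicate blocks, array weights and left-out arrays. The members and lists were chosen with earlier results of these data known. Every member was accounted for, with values by array for those whose strains did not overlap and for the smallest p of each role group; of marker lists with a score, the brightest genes were named, some of which are not reported here. The fit of every probe, its alternatives and the striatal deep-layer genes alone were added after seeing the data.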

Additional observations from a re-analysis of the deposited data

How the results depend on the processing

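Genes called numbered 930 with the settings used, 192 after normexp, 496 with a replicate block, 1870 with array weights, and 433 to 899 with 1 array left out. No member was called under any of these except array weights, which called 1 (Cux1). Over 39 members and 20 alternatives, 692 of 780 differences kept their sign, and 27 members changed sign at least once. Of the other projection neuron genes, the mean of a gene's probes called 1 (Sv2b, -1.18, limma adjusted p = 0.00944, against 0.04 by its brightest probe). Slide 1 alone also called 1 (Scnn1a, -1.05, limma adjusted p = 0.0244, against -0.49), as did leaving out BTBR replicate 3, and the range with 1 array left out was 0 to 1. The second Lmo3 probe differed by -1.94, against 0.04 by the brightest probe. The Cux1 probe A_52_P567658 was called in 4 of 15 alternative fits and the second Slc17a6 probe in 1, without BTBR replicate 3 (limma adjusted p = 0.0492). With 1 array left out, the upper-layer median ran from -0.10 to 0.28, the deep-layer median from -0.21 to 0.11 and the upper minus deep difference from -0.23 to 0.39, the sign turning without C57BL/6J 3 in each and, for the medians, also without BTBR 3. The causes were not tested. Correlations between strains of the deviations from strain means were 0.05, -0.15 and -0.08 for replicates 1 to 3. For unmatched replicates they ran from -0.26 to 0.32. With 3 mice per strain these values cannot decide whether replicate numbers pair the mice. The precision is limited by 3 arrays per strain, and members within intervals that include 0 may still differ.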

Other observations

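Markers of the olfactory bulb and piriform cortex had their highest list score in BTBR 2, though Meis2 and Pbx3 were as high in C57BL/6J 3. The score was 1.65 in BTBR 2 and between -0.43 and 0.04 in the other 5 mice, and BTBR 2 was above both other BTBR mice for 10 of 10 tested markers. Of the 3 brightest, Meis2 read 4.85 in BTBR 2 and 5.08 in C57BL/6J 3 against 3.34 to 3.95 in the others. Pbx3 read 1.74 and 1.99 in these mice against -0.47 to -0.08, and Dlx1 read 0.61 and -1.33 against -0.54 to -0.10. Meis2 and Pbx3 were thus high in the same mice as the striatal markers. C57BL/6J 3 was above both other C57BL/6J mice for 5 of the 10 markers and below both for 5. It was the lowest of all mice for Dlx1, Dlx2 (-2.39), Sp8 (-5.04) and Tbx21 (-5.85). None of the 10 markers passed the test between strains with all 6 arrays (limma, Benjamini-Hochberg adjustment). Cdhr1, named after its values were seen, read -3.69, -2.64 and 0.35 in C57BL/6J and 0.85, 2.01 and -0.13 in BTBR. Its difference of 2.90 (limma adjusted p = 0.245) was called in 4 of 20 alternatives, among them 4.07 without C57BL/6J 3 (limma adjusted p = 0.0335) and 3.52 with BTBR 2 left out as well (limma adjusted p = 0.04).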
